A study of Mus musculus with 2 samples.

Results

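Osteoclasts become multinucleated by fusing with one another, and 6 genes whose products act at the fusing membranes were followed here: Dcstamp, Ocstamp, Cd9, Cd81, Cd47 and Sirpa. They were chosen by name for that role, and all 6 were among the 32285 mouse genes counted. Bone marrow cells of a 3-month-old male C57BL/6J wild-type mouse were cultured with 1 nM 5ɑ-dihydrotestosterone (DHT, the androgen made from testosterone) or with an equal volume of ethanol, its vehicle. For 48 hours the medium lacked hormones and held M-CSF, a growth factor for macrophages, at 5 ng/mL. For a further 24 hours M-CSF was at 100 ng/mL, with RANKL at 30 ng/mL and human TNFɑ at 10 ng/mL, and DHT or vehicle was kept in, so every cell compared had been exposed to an inflammatory osteoclast-inducing mixture. The adherent cells, labelled osteoclast precursors, gave 1 single-cell RNA library for DHT and 1 for Vehicle. With 1 library in each group there is no replicate check, and intervals below are 95% intervals for counting error alone.

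RANKL switches on the transcription factor Nfatc1 in myeloid precursors, which induces the resorption genes Acp5 and Ctsk and the fusion genes Dcstamp and Ocstamp. Dcstamp and Ocstamp are multi-pass membrane proteins, and mice that lack either one form osteoclasts that stay mononuclear. Cd9 and Cd81 are tetraspanins, small membrane proteins that gather partner proteins into platforms. Mice without both form more multinucleated phagocytes, while Cd9 has been found to favour osteoclast fusion in culture. Cd47 is a widely expressed surface protein that binds Sirpa, a receptor of myeloid cells whose tail recruits the phosphatases Ptpn6 and Ptpn11, and the pair takes part in fusion of macrophages.

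In GENCODE release M21 on GRCm38, Dcstamp lies on the plus strand at chr15:39745930-39760938 and Ocstamp on the minus strand at chr2:165393760-165400405. Cd9 lies on the minus strand at chr6:125460266-125494791 and Cd81 on the plus strand at chr7:143052739-143067934. Cd47 lies at chr16:49800533-49915010 and Sirpa at chr2:129592835-129632228, both on the plus strand. Exons of Cd9 are overlapped over 218 bases by Gm26728, and exons of Cd81 over 402 bases by R74862, both on the opposite strand. Whether counting used strand is not given in the sources used here, so reads in those stretches cannot be assigned with certainty. The overlapping genes were nearly silent: over all kept cells R74862 had 0.701 CPM (counts per 1000000 counts of those cells) in DHT and 0.775 CPM in Vehicle, and Gm26728 had 0.165 CPM in DHT and 0.135 CPM in Vehicle.

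The stretch just upstream of the start is shown for the members that RefSeq's promoter table (GRCm38.p6) holds, Cd9, Cd81 and Cd47, because Isg15, an interferon-induced gene, was higher in the DHT library in the 7 classes of cells described below, with log2 ratios from 2.00 to 3.87. Each run has 215 bases, written 5′ to 3′ on the gene's strand, and ends 35 bases before the RefSeq start, ahead of any exon. Capitals mark the letters GGAAA, the core of NFAT motifs, and GGGCGG, the GC box, on either strand.
Cd9: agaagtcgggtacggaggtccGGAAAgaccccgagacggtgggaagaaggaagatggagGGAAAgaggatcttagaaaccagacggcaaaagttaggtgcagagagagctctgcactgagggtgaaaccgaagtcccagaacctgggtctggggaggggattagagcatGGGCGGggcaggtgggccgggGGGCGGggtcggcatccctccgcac
Cd81: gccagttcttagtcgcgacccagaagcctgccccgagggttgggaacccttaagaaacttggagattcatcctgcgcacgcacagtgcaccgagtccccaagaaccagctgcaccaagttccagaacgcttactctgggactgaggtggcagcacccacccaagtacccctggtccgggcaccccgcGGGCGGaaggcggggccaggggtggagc
Cd47: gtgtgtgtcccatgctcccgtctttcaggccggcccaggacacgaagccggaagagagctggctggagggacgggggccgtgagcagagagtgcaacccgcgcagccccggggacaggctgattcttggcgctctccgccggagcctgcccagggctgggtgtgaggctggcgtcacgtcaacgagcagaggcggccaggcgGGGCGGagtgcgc
These are chr6:125494796-125495010 on the minus strand for Cd9, chr7:143052500-143052714 on the plus strand for Cd81, and chr16:49855404-49855618 on the plus strand for Cd47. The Cd47 stretch lies in an intron of 2 longer annotated Cd47 transcripts, and it is the first of 2 Cd47 entries. The core of the interferon-stimulated response element, searched as GAAA, any 2 bases and GAAA again on both strands, was in 0 of these 3 stretches, and in 2.58% of 32851 windows of the same length and place. The AP-1 letters TGANTCA were also in 0 of them, against 5.97% of all windows. The NFAT core was found 2 times for Cd9 and 0 times for Cd81 and Cd47, and 50.6% of all windows hold it. The GC box was found 2 times for Cd9 and 1 time each for Cd81 and Cd47, and 27.7% of all windows hold it. These matches describe letters in a window and are not binding sites.

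After filtering, 7708 DHT cells and 8590 Vehicle cells were kept, with a median of 30133 unique molecular identifiers (UMIs, each 1 counted mRNA molecule) per DHT cell and 50833.5 per Vehicle cell. The libraries shared 33 cell barcodes. Cells were clustered without the 6 genes, the gene lists described below and 133 interferon genes, and 7 classes with at least 100 cells in each library were named from markers. Osteoclast-like cells were 1758 of the DHT cells (22.8%) and 3452 of the Vehicle cells (40.2%), with medians of 60920 UMIs in DHT and 63881.5 UMIs in Vehicle. They joined 3 clusters. Cluster 1 (715 DHT and 1346 Vehicle cells) was led by Slc9b2, Atp6v0d2, Ctsk, Plxna4 and Acp5. Clusters 0 (680 DHT and 1526 Vehicle cells) and 7 (363 DHT and 580 Vehicle cells) were dividing, with Mki67, a gene of proliferating cells, at 478 CPM in DHT and 502 CPM in Vehicle in cluster 0 and 517 CPM in DHT and 542 CPM in Vehicle in cluster 7. Cluster 2 (528 DHT and 1431 Vehicle cells, led by Plxna4, Gpnmb and Col18a1) did not meet the marker rule for any class.

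The osteoclast-like class was named from the osteoclast markers, so their levels are no separate check of its identity. In it 0 of 10 osteoclast markers were at 0, but so were 0 of 10 neutrophil markers. Acp5, tartrate-resistant acid phosphatase, had 635 CPM in DHT and 519 CPM in Vehicle in the class. Ctsk, cathepsin K, had 498 CPM in DHT and 435 CPM in Vehicle. The macrophage gene C1qa there had 15.7 CPM in DHT and 10.1 CPM in Vehicle. The outer limit of the class was not stable. Cluster 0 had 1 osteoclast marker, Atp6v0d2, among its 10 leading genes, beside Pf4. That gene is on the megakaryocyte list and was also a leading gene of the macrophage-like class. The 5 other random seeds for the clustering gave between 968 and 2270 DHT and between 1668 and 4773 Vehicle osteoclast-like cells. Values below are therefore also given by cluster and by level of osteoclast genes. Transcripts do not show whether a cell had fused.

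Over all kept cells, which mix the classes in different shares, Dcstamp had 58.5 CPM in DHT and 78.1 CPM in Vehicle, a log2 ratio of -0.42. Ocstamp had 36.7 CPM in DHT and 42.3 CPM in Vehicle, a log2 ratio of -0.21. Of the 6 genes 0 differed by 1.5-fold or more, the size rule defined below, and 5.66% of all genes did. Osteoclast-like cells, the class with the highest level of Ocstamp, were a smaller share of the DHT library, so the rest of the text compares cells within classes and within ranges of osteoclast gene share.

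The 6 genes had different homes among the 7 classes. Dcstamp was high in osteoclast-like cells, at 127 CPM (125 to 129) in DHT and 117 CPM (116 to 118) in Vehicle, and in conventional dendritic cell-like cells, at 71.2 CPM (64.4 to 78.4) in DHT and 120.5 CPM (113 to 128) in Vehicle. The intervals of these 2 classes overlapped in Vehicle and did not in DHT. Macrophage-like cells followed with 12.7 CPM in DHT and 19.1 CPM in Vehicle, and the other 4 classes lay between 1.48 and 4.41 CPM in DHT and between 4.87 and 9.65 CPM in Vehicle.

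Ocstamp was more restricted. It had 81.3 CPM (79.6 to 82.95) in DHT and 64.8 CPM (63.8 to 65.9) in Vehicle in osteoclast-like cells, against 11.2 CPM (8.66 to 14.4) in DHT and 19.8 CPM (16.9 to 23.1) in Vehicle in the dendritic class. Elsewhere Ocstamp was at most 6.18 CPM in DHT and 5.51 CPM in Vehicle. The dendritic class had the antigen-presenting genes H2-Aa, H2-Eb1 and Cd74 in front, and its summed level of 10 osteoclast markers was 426 CPM in DHT and 542 CPM in Vehicle, with Calcr, the calcitonin receptor, at 0 in both. In osteoclast-like cells that sum was 2983 CPM in DHT and 2420.1 CPM in Vehicle. How far osteoclast transcripts from other cells in the same droplets contribute to Dcstamp and Ocstamp in the dendritic class was not tested.

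The tetraspanins were placed differently from one another. Cd9 was highest in neutrophil-like cells (454 CPM in DHT, 538 CPM in Vehicle) and dendritic cell-like cells (391 CPM in DHT, 603 CPM in Vehicle), in an order that differed between the libraries. Osteoclast-like and macrophage-like cells came next, also in an order that differed between the libraries. Cd9 was lowest in B cell-like cells (31.2 CPM in DHT, 34.7 CPM in Vehicle). Cd81 was highest in granulocyte-monocyte progenitor-like cells, at 103 CPM (97.8 to 108) in DHT and 111 CPM (104 to 119) in Vehicle. Macrophage-like cells came next for Cd81, at 92.6 CPM (89.3 to 95.98) in DHT and 109 CPM (106 to 113) in Vehicle, with intervals that overlapped those of the progenitor class in Vehicle and did not in DHT. Cd81 was lowest in dendritic cell-like cells (14.4 CPM in DHT, 27.9 CPM in Vehicle) and osteoclast-like cells (28.5 CPM in DHT, 39.5 CPM in Vehicle), whose intervals did not overlap in either library.

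Cd47 was lowest in osteoclast-like cells in both libraries, at 126 CPM (124 to 128) in DHT and 132 CPM (131 to 134) in Vehicle. The other 6 classes lay between 249.8 and 508 CPM in DHT and between 207 and 439.9 CPM in Vehicle, with the dendritic class highest in DHT and the progenitor class highest in Vehicle. Sirpa, its receptor, was highest in macrophage-like cells, at 421 CPM in DHT and 311 CPM in Vehicle. Monocyte-like cells had 225 CPM (221 to 229) in DHT and 174 CPM (170.3 to 177) in Vehicle, and osteoclast-like cells 201 CPM (199 to 204) in DHT and 173 CPM (171 to 174) in Vehicle, with intervals that overlapped in Vehicle and did not in DHT. B cell-like cells were lowest for Sirpa, at 16.7 CPM in DHT and 3.86 CPM in Vehicle. That Vehicle value rests on very few UMIs, from 113 cells at a median of 4552 UMIs, so no ratio is read from it.

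**Figure D1:**
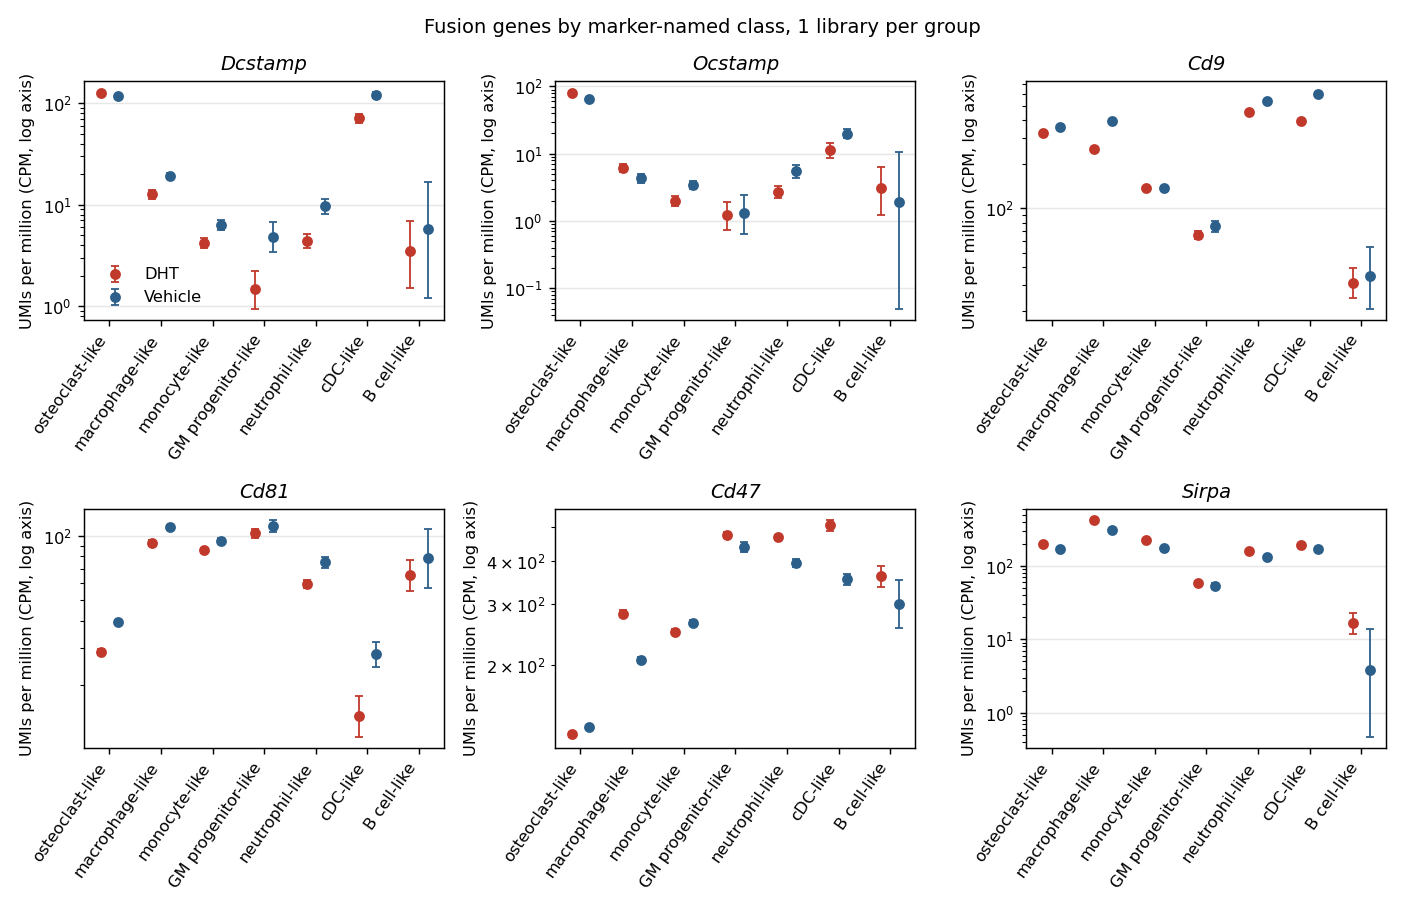
CPM of summed UMIs on a log axis for each fusion gene in 7 marker-named classes, DHT (red, left) and Vehicle (blue, right), 1 library each, with 95% Poisson intervals. Dcstamp and Ocstamp are highest in osteoclast-like and conventional dendritic cell-like (cDC-like) cells, where Cd81 is lowest, and Cd47 is lowest in osteoclast-like cells. GM stands for granulocyte-monocyte.

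Within osteoclast-like cells none of the 6 genes differed by 1.5-fold: Ocstamp and Sirpa had higher levels with DHT, Cd81 and Cd9 lower levels, and Dcstamp and Cd47 nearly the same level in both libraries. By the size rule used throughout, a ratio of at least 1.5-fold and a level of 20 CPM or more in either library, 0 of the 6 genes were higher and 0 of 6 were lower with DHT. Of the 6515 genes at that level in these cells, 0.998% were at least 1.5-fold higher and 0.0921% at least 1.5-fold lower. These are sizes in 1 pair of libraries, not a test of the treatment.

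Dcstamp had 127 CPM in DHT and 117 CPM in Vehicle, from 14113 UMIs in DHT and 26504 UMIs in Vehicle, a log2 ratio of 0.12 (0.09 to 0.15). The sign turned at a coarser clustering resolution of 0.3 (-0.01) and when both libraries were weighted to 1 mix of bins (-0.01), so no direction can be given for Dcstamp. Ocstamp had 81.3 CPM in DHT and 64.8 CPM in Vehicle, from 9015 UMIs in DHT and 14693 UMIs in Vehicle, a log2 ratio of 0.33 (0.29 to 0.36), which is below the size rule. The median cell had 76.3 CPM in DHT and 66.3 CPM in Vehicle for Dcstamp, and 45.8 CPM in DHT and 35.01 CPM in Vehicle for Ocstamp.

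Cd81 was nearest to the size rule, with 28.5 CPM (27.6 to 29.5) in DHT and 39.5 CPM (38.7 to 40.3) in Vehicle, from 3166 UMIs in DHT and 8958 UMIs in Vehicle, and a log2 ratio of -0.47 (-0.53 to -0.41). Whether it passes depends on the clustering. When the same cells were clustered again with 5 other random seeds and 1 other processor setting, alternatives added after seeing the data, its log2 ratio ran from -0.63 to -0.41 and it was called lower in 1 of 6 runs. It also passed 1.5-fold in a smaller osteoclast-like class that the same steps gave while thread and processor settings were not fixed. Cd9, the other tetraspanin, had 327 CPM in DHT and 356 CPM in Vehicle, a log2 ratio of -0.12 (-0.14 to -0.11).

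Sirpa had 201 CPM (199 to 204) in DHT and 173 CPM (171 to 174) in Vehicle, a log2 ratio of 0.22 (0.20 to 0.25). Cd47 had 126 CPM in DHT and 132 CPM in Vehicle, a log2 ratio of -0.07 (-0.10 to -0.04), whose sign turned in cluster 1 alone (0.01) and at resolution 0.3 (0.02). For comparison, Mmp9, a collagen-degrading protease of osteoclasts, had 575 CPM in DHT and 309 CPM in Vehicle in the same cells, and Isg15, an interferon-induced protein, had 84.6 CPM in DHT and 5.78 CPM in Vehicle.

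Shares of cells with a UMI were compared after each cell was thinned to 5000 UMIs, which left 1736 of the DHT and 3433 of the Vehicle osteoclast-like cells. Dcstamp was then found in 36.3% (34.1 to 38.7) of DHT and 36% (34.4 to 37.6) of Vehicle cells, and Ocstamp in 27.6% (25.6 to 29.8) of DHT and 24.5% (23.04 to 25.9) of Vehicle cells. The intervals of DHT and Vehicle overlapped for both genes. Without thinning the shares were 75.6% in DHT and 75.96% in Vehicle for Dcstamp, and 71.8% in DHT and 70.2% in Vehicle for Ocstamp. In neutrophil-like cells, which do not express Dcstamp or Ocstamp as far as is known, the thinned shares were 1.204% of DHT and 1.98% of Vehicle cells for Dcstamp and 0.917% of DHT and 0.9901% of Vehicle cells for Ocstamp, at median depths before thinning of 13200 UMIs in DHT and 9906.5 UMIs in Vehicle over the whole class.

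The tetraspanins were both found less widely in DHT, in intervals that did not overlap. Cd81 was found in 12.6% (11.1 to 14.3) of DHT and 15.9% (14.7 to 17.1) of Vehicle cells after thinning, and in 57.9% in DHT and 68.7% in Vehicle unthinned. Cd9 was found in 72.6% (70.5 to 74.7) of DHT and 77.7% (76.3 to 79.1) of Vehicle cells, and Sirpa in 62.3% (60 to 64.6) of DHT and 55.4% (53.7 to 57.1) of Vehicle cells, again without overlap and with DHT higher for Sirpa. In B cell-like cells Sirpa was found in 8.39% of DHT and 4.76% of Vehicle cells. Cd47 was found in 45.3% of DHT and 43.2% of Vehicle cells, the opposite order to its CPM, so no order is read from it. Cd9, Cd81 and Cd47 were found in every class, so no class lacking them could serve as background.

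Transcripts of other cells did move with the libraries. The summed level of 10 neutrophil markers in osteoclast-like cells was 874 CPM in DHT and 384 CPM in Vehicle, with 0 of 10 at 0 in either, and that of 10 macrophage markers was 283 CPM in DHT and 249 CPM in Vehicle, with Timd4 at 0 in both. Free RNA was subtracted as a fraction of the summed counts of all barcodes, not of empty droplets. The fraction was the median over the 10 neutrophil markers, 2.68% in DHT and 3.01% in Vehicle. Single markers gave from 1.97% to 12.2% in DHT and from 2.22% to 30.95% in Vehicle, so it is a rough estimate. After this subtraction the log2 ratio of Cd81 was -0.49, that of Ocstamp 0.33 and that of Dcstamp 0.13. The part of neutrophil transcripts in the differences above was otherwise not tested.

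The 3 osteoclast-like clusters did not behave alike. In cluster 1, with high Acp5 (1143 CPM in DHT, 1003 CPM in Vehicle), Dcstamp had 211 CPM in DHT and 209 CPM in Vehicle, and Ocstamp had 143 CPM in DHT and 124 CPM in Vehicle. Dcstamp there was level between the libraries, with a log2 ratio of 0.01 (-0.03 to 0.05). In the dividing cluster 0 Dcstamp had 71.7 CPM in DHT and 68 CPM in Vehicle, and Ocstamp had 40.9 CPM in DHT and 33.9 CPM in Vehicle. In the dividing cluster 7 Dcstamp had 84.4 CPM in DHT and 69.7 CPM in Vehicle, a log2 ratio of 0.28 (0.19 to 0.36), and Ocstamp had 46.9 CPM in DHT and 33.1 CPM in Vehicle, a log2 ratio of 0.50 (0.38 to 0.62). Acp5 and Ctsk were higher with DHT in cluster 7 too, with log2 ratios of 0.39 for Acp5 and 0.53 for Ctsk.

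Cd81 was lower in cluster 7 by the size rule, with 26.1 CPM in DHT and 43.6 CPM in Vehicle, a log2 ratio of -0.74 (-0.88 to -0.60), where 0.35% of genes were at least 1.5-fold lower. It was the 1 member of 6 called there. In cluster 0 Cd81 had 44.4 CPM in DHT and 54.5 CPM in Vehicle, and 0 of 6 genes reached the rule, beside 1.32% of all genes in either direction. In cluster 1 Cd81 had 12.3 CPM in DHT and 16.7 CPM in Vehicle, under the 20 CPM minimum, so 0 of 5 genes reached the rule there and 0.95% of all genes did. Sirpa had log2 ratios of 0.12 in cluster 0, 0.16 in cluster 1 and 0.42 in cluster 7.

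Cluster 2, which stayed unnamed, had less Acp5, at 95.3 CPM in DHT and 77.1 CPM in Vehicle. Its Dcstamp level (72.7 CPM in DHT, 64.5 CPM in Vehicle) and Ocstamp level (49.2 CPM in DHT, 39.1 CPM in Vehicle) were close to those of the dividing clusters and far below those of cluster 1. None of the 6 genes reached 1.5-fold in cluster 2, where 1.47% of genes did in either direction. Ocstamp and Sirpa had positive log2 ratios, and Cd9 and Cd81 negative ones, in all of clusters 0, 1, 2 and 7.

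To set cells with a like amount of osteoclast gene expression side by side, osteoclast-like cells were divided into 6 bins by the share of their UMIs from Acp5 and Ctsk together. From the lowest bin (under 0.02%) to the highest (at least 0.4%), the bins held 682, 238, 233, 298, 236 and 71 DHT cells, and 1522, 464, 456, 479, 404 and 127 Vehicle cells. Cells whose share lay within 10% of a bin edge were 16.95% of DHT and 16.2% of Vehicle cells. Bins were made from Acp5 and Ctsk alone, so levels of the 6 genes along them were not fixed by the binning, although all genes of a cell share its depth.

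Dcstamp climbed along the bins in both libraries. It had 40.2, 112, 138, 191, 234 and 282 CPM in DHT from the lowest bin to the highest, and 39.4, 118, 147, 194, 227 and 281 CPM in Vehicle. The DHT level was above the Vehicle level in 3 of 6 bins and below it in 3, with log2 ratios from -0.09 to 0.05.

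Ocstamp climbed as well, with 26.04, 63.2, 94.7, 108, 163 and 193 CPM in DHT and 20.9, 65.6, 77.2, 106, 135 and 157 CPM in Vehicle. The DHT level was above the Vehicle level in 5 of 6 bins. Its largest log2 ratio was 0.32 (0.21 to 0.42), in the lowest bin.

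Cd9 stayed within a narrower range: 253, 370.3, 359, 359, 381 and 452 CPM in DHT, against 302, 359, 404, 414, 410.0 and 433 CPM in Vehicle. It was lower in DHT in 4 of 6 bins and higher in 2, with log2 ratios from -0.26 to 0.06. Cd81 ran steeply down from the lowest bin on, with 49.3, 23.6, 16.4, 13.9, 11.9 and 5.91 CPM in DHT and 62.9, 27.7, 23.1, 17.1, 15.9 and 12.2 CPM in Vehicle. The DHT level of Cd81 was below the Vehicle level in 6 of 6 bins. From 0.1% up it was under 20 CPM in both libraries.

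Of the 6 genes 0 reached the size rule in any bin. From the lowest bin to the highest, 1.4%, 1.12%, 1.61%, 0.973%, 0.968% and 2.51% of all genes reached it in either direction. Among genes at 20 CPM the nearest was Cd81 at 0.05 to 0.1%, with a log2 ratio of -0.50 (-0.73 to -0.27). Cd81 passed the rule in at least 1 bin with 3 of the 5 other random seeds.

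Cd47 ran down and then turned up: 173, 111, 101, 84.2, 83.1 and 124 CPM in DHT, and 173, 121, 107, 89.3, 77.4 and 95 CPM in Vehicle. Its log2 ratio was 0.002 in the lowest bin, negative in the next 3 and 0.39 (0.24 to 0.54) in the highest, which held 71 DHT cells. Sirpa had 155, 208, 237, 242, 244 and 190.5 CPM in DHT, and 142, 183, 204, 212, 201 and 176 CPM in Vehicle, highest at 0.2 to 0.4% in DHT and at 0.1 to 0.2% in Vehicle, with intervals that overlapped those of a neighbouring bin. Its DHT level was above the Vehicle level in 6 of 6 bins, with log2 ratios from 0.11 to 0.28, and the lower end of the interval came nearest to 0 in the highest bin.

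**Figure D2:**
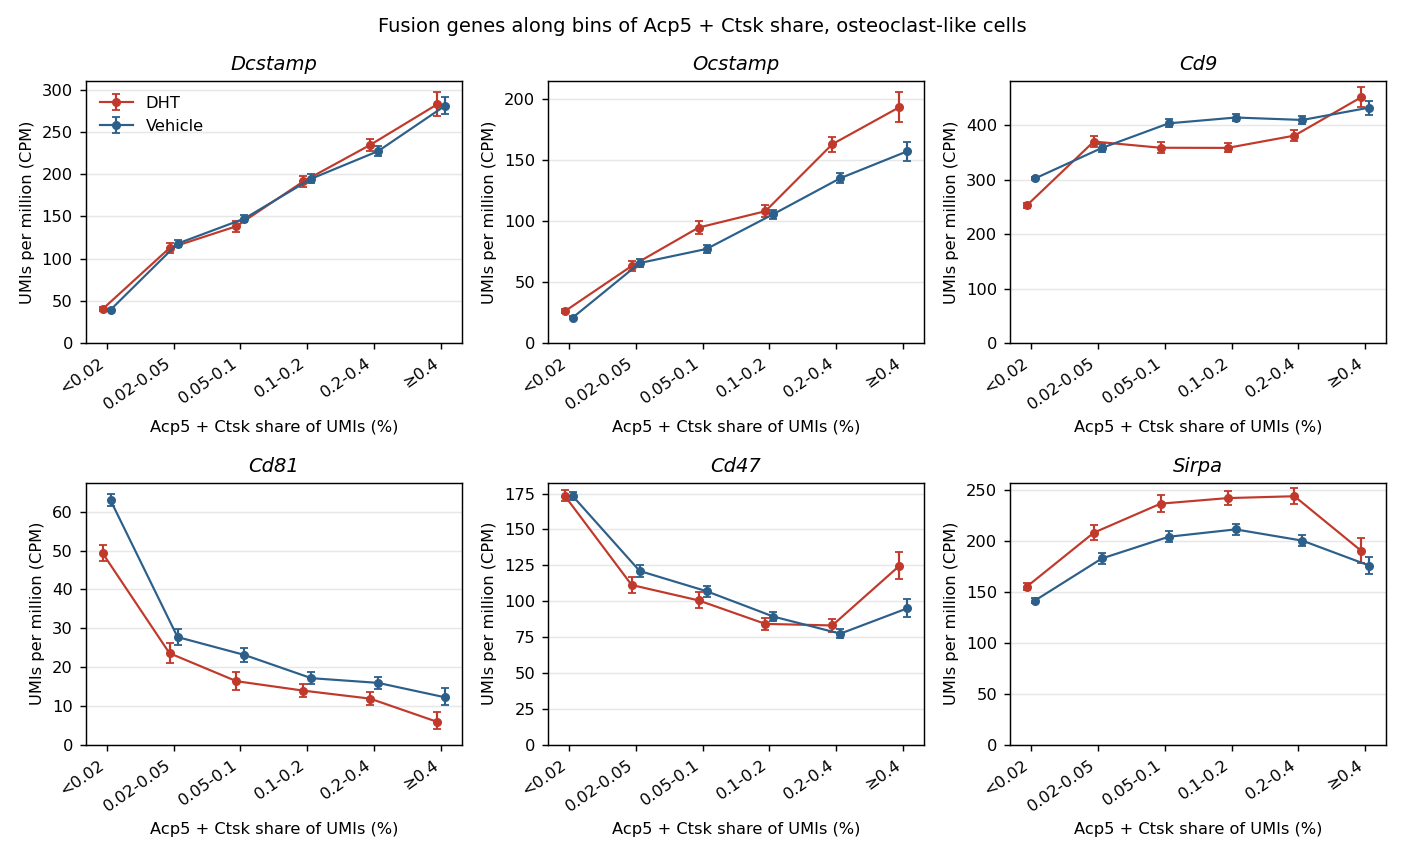
CPM of each fusion gene (vertical axis, from 0) in osteoclast-like cells against the Acp5 and Ctsk share of UMIs, in 6 bins, for DHT (red) and Vehicle (blue), with 95% Poisson intervals. Dcstamp and Ocstamp climb and Cd81 runs down along the bins in both libraries, and the Sirpa line of DHT lies above that of Vehicle in 6 of 6 bins.

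Weighting both libraries to the same mix of bins gave log2 ratios of -0.01 for Dcstamp, 0.20 for Ocstamp, -0.16 for Cd9, -0.36 for Cd81, -0.01 for Cd47 and 0.19 for Sirpa. With cluster 2 added, the same weighting gave 0.01 for Dcstamp, 0.21 for Ocstamp and -0.31 for Cd81.

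Thinned shares of cells were read along the same bins. Dcstamp was found in 14.3% of DHT and 16.5% of Vehicle cells in the lowest bin, and in 75% of DHT and 66.1% of Vehicle cells in the highest. Cd81 was found in 19.4% of DHT and 23.7% of Vehicle cells in the lowest bin, and in 2.94% (0.358 to 10.2) of DHT and 6.45% (2.83 to 12.3) of Vehicle cells in the highest, where the intervals were wide. Within single bins the intervals of DHT and Vehicle overlapped for all 6 genes, apart from Cd9 in the lowest bin, which was found in 61.5% (57.8 to 65.2) of DHT and 71.2% (68.8 to 73.4) of Vehicle cells. Over all kept cells with at least 5000 UMIs, whatever their class, the 1 call along the bins was Dcstamp under 0.02%, with 18.3 CPM in DHT and 31.6 CPM in Vehicle, a log2 ratio of -0.79, where 0.848% of genes were at least 1.5-fold lower. That bin held 5215 DHT and 5680 Vehicle cells and mixed the classes in different shares. Clusters 0, 1, 2 and 7 together had 1096 DHT and 2693 Vehicle cells under 0.02%, at any depth. Within osteoclast-like cells the Dcstamp level under 0.02% was nearly the same in both libraries. The part of the class mix in the call was not tested.

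**Figure D3:**
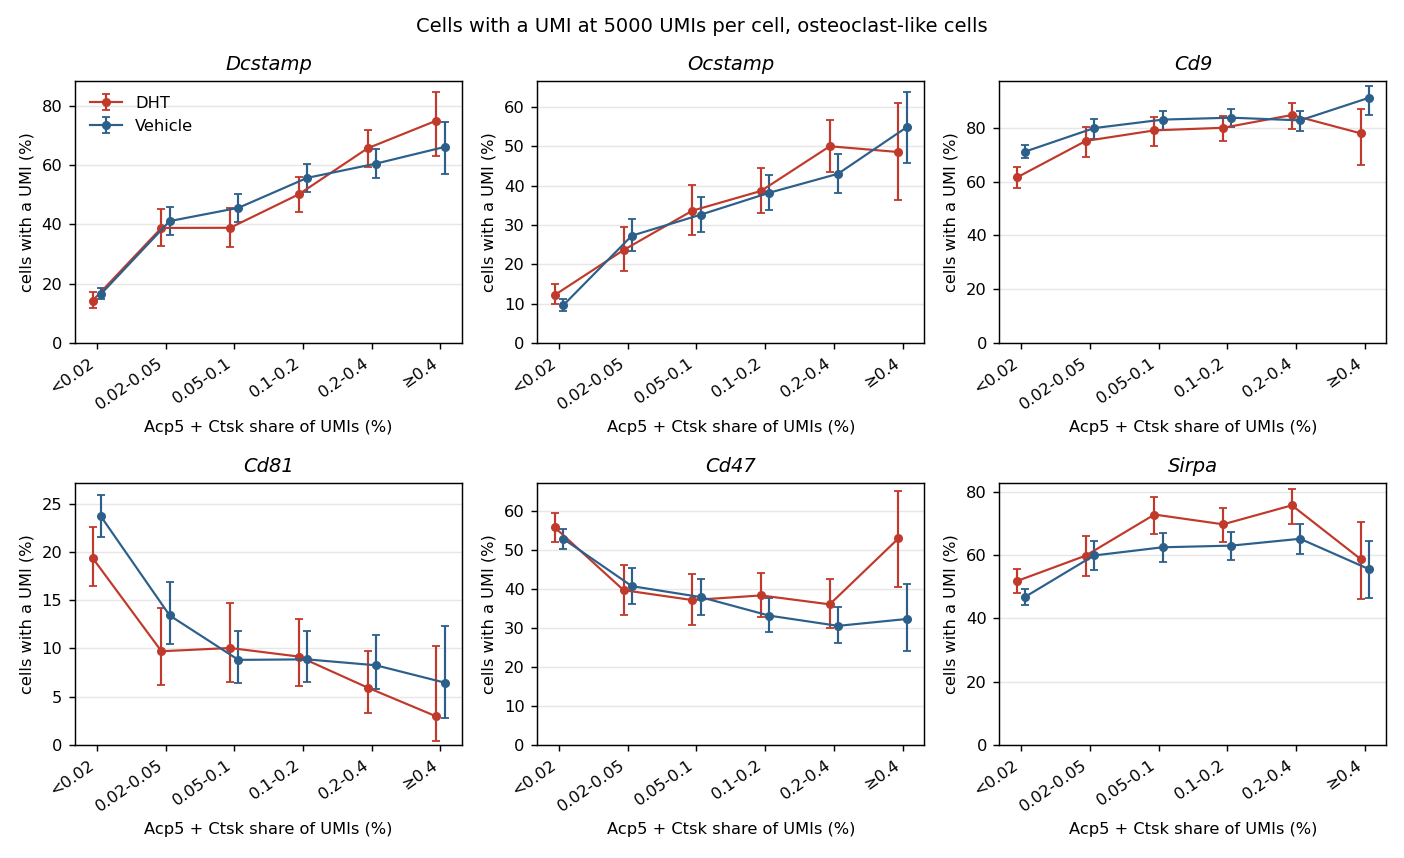
Percent of osteoclast-like cells with at least 1 UMI of each fusion gene after thinning to 5000 UMIs per cell, against the Acp5 and Ctsk share of UMIs, for DHT (red) and Vehicle (blue), with 95% Clopper-Pearson intervals. Shares with Dcstamp go up from 14.3% in DHT and 16.5% in Vehicle in the lowest bin, and the intervals of the libraries overlap for each gene and bin but Cd9 in the lowest.

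Ocstamp was found more often in osteoclast-like cells with Dcstamp than in those without it, although after thinning most cells with either gene had a UMI of just 1 of the pair. Both were then found in 14.9% of DHT cells, where the product of their shares was 10.1%, and in 13.9% of Vehicle cells, where it was 8.81%. Ocstamp was detected in 41.05% (37.2 to 45) of DHT cells with Dcstamp and 20% (17.7 to 22.5) of DHT cells without it. In Vehicle the shares were 38.6% (35.9 to 41.4) of cells with Dcstamp and 16.5% (14.99 to 18.1) of cells without. Since both genes climb with the Acp5 and Ctsk share, the same was read within bins: Ocstamp was more frequent in cells with Dcstamp in 6 of 6 bins of each library, from 18.8% with against 11.1% without in the lowest DHT bin, and 20.3% with against 7.41% without in the lowest Vehicle bin. The intervals did not overlap in the 2 lowest Vehicle bins and overlapped in the other 4, and in 6 of 6 DHT bins. In the unnamed cluster 2 the shares were 18.5% with against 18.2% without in DHT, and 23.03% with against 13.04% without in Vehicle.

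The other 5 pairs compared were mixed. They were not read within bins, although Dcstamp, Cd47 and Cd81 also change along the Acp5 and Ctsk share. Its part in the shares below was therefore not tested. Cd9 was found in 79.7% (76.4 to 82.8) of DHT cells with Dcstamp and 68.6% (65.8 to 71.3) of those without, and in 81.6% (79.4 to 83.8) of Vehicle cells with Dcstamp and 75.5% (73.7 to 77.3) of those without, in intervals that did not overlap. Cd9 was also more frequent in cells with Ocstamp, at 76.7% with against 71.1% without in DHT and 80.8% with against 76.7% without in Vehicle, in overlapping intervals. Cd47 was less frequent in cells with Dcstamp, at 40.6% with against 48.1% without in DHT and 34.6% with against 47.97% without in Vehicle, in intervals that did not overlap. The receptor pair and the tetraspanin pair had lower shares in cells with the first gene, in overlapping intervals. Sirpa was found in 59.6% of DHT cells with Cd47 and 64.6% of those without, and in 52.8% of Vehicle cells with Cd47 and 57.4% of those without. Cd81 was found in 11.4% of DHT cells with Cd9 and 15.8% of those without, and in 15.7% of Vehicle cells with Cd9 and 16.5% of those without.

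Outside the osteoclast-like class, conventional dendritic cell-like cells held the most called members: 3 of the 5 genes at 20 CPM, Dcstamp, Cd9 and Cd81, were lower with DHT and 0 were higher. In this class 4.02% of genes were at least 1.5-fold lower and 10.7% at least 1.5-fold higher. Dcstamp had 71.2 CPM in DHT and 120.5 CPM in Vehicle, a log2 ratio of -0.76 (-0.93 to -0.59), with thinned shares of 15.6% of DHT and 27.7% of Vehicle cells. Cd9 had 391 CPM (375 to 408) in DHT and 603 CPM (586 to 620.2) in Vehicle, a log2 ratio of -0.62 (-0.70 to -0.55). Cd81 had 14.4 CPM in DHT and 27.9 CPM in Vehicle, a log2 ratio of -0.95 (-1.34 to -0.58), from 82 UMIs in DHT and 227 UMIs in Vehicle. Cd47 went the other way without reaching 1.5-fold, at 508 CPM in DHT and 354 CPM in Vehicle, a log2 ratio of 0.52 (0.45 to 0.60).

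The dendritic class was small, with 176 DHT and 218 Vehicle cells, and its calls moved with the settings. In the 6 further clusterings of the same cells Cd81 was called lower in 6, Dcstamp in 2, Cd9 in 1 and Ocstamp in 1. At resolution 1.0 Cd81 was the 1 gene called, while at resolution 0.3 the call of Cd81 was lost and Dcstamp alone was called, and with the mean of each cell's CPM Dcstamp and Cd9 were called and Cd81 was not. In the class as first clustered, markers of other cells also differed between the libraries. The summed level of 7 plasmacytoid dendritic cell markers in the class was 1739 CPM in DHT and 719 CPM in Vehicle, with 0 of 7 at 0 in either. That of 6 stem or progenitor markers was 1009 CPM in DHT and 568 CPM in Vehicle, with Mecom at 0 in DHT. That of 10 neutrophil markers was 574 CPM in DHT and 1032 CPM in Vehicle, with 0 of 10 at 0 in either. That of the 10 osteoclast markers is given above, and Mki67 was 111 CPM in DHT and 179.9 CPM in Vehicle. At resolution 1.0 and in 5 of the 6 further clusterings a separate plasmacytoid dendritic cell-like cluster appeared, with 56 DHT and 30 Vehicle cells at resolution 1.0 and with the first of the other seeds. Cd9 was called in the dendritic class in 0 of those 5 clusterings and Dcstamp in 1. The part of these differences in the values of the 3 genes was otherwise not tested.

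In macrophage-like cells 1 of 4 genes at that level, Cd9, was lower with DHT and 0 were higher, where 1.43% of genes were at least 1.5-fold lower and 3.16% at least 1.5-fold higher. Cd9 had 252 CPM (246 to 257) in DHT and 391.9 CPM (386 to 398) in Vehicle, a log2 ratio of -0.64 (-0.68 to -0.60), and was found in 55.3% (51.8 to 58.8) of DHT and 76.2% (73.3 to 78.97) of Vehicle cells after thinning. The median macrophage-like cell had 167 CPM in DHT and 324 CPM in Vehicle for Cd9. The call was lost with no doublet removal and at resolution 1.0, and was made in 6 of the 6 further clusterings. Dcstamp, under 20 CPM here, had 12.7 CPM in DHT and 19.1 CPM in Vehicle, a log2 ratio of -0.59 (-0.76 to -0.42), and was called lower in 4 of the 6 further clusterings.

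The receptor pair went the other way in macrophage-like cells without reaching 1.5-fold, although Sirpa was called higher there with no doublet removal. Cd47 had 282 CPM in DHT and 207 CPM in Vehicle, a log2 ratio of 0.44, and Sirpa had 421 CPM in DHT and 311 CPM in Vehicle, a log2 ratio of 0.44. The macrophage-like cells of the libraries differed in more than these genes: C1qa had 299 CPM in DHT and 127 CPM in Vehicle, Mki67 had 152 CPM in DHT and 269 CPM in Vehicle, and Isg15 had 154 CPM in DHT and 11.9 CPM in Vehicle. The summed level of the 10 neutrophil markers there was 1745 CPM in DHT and 694 CPM in Vehicle, with 0 of 10 at 0 in either library, and that of the 10 macrophage markers was 2376 CPM in DHT and 1367 CPM in Vehicle, with Timd4 at 0 in both. The part of these differences in the Cd9 values was not tested.

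Cd9 was also lower in cluster 5, an unnamed cluster of low-UMI cells led by macrophage genes such as Pf4 and Ms4a7, with 214 CPM (198 to 231) in DHT and 388 CPM (358 to 418) in Vehicle. Dcstamp was the other call of 6 genes there, with 20.8 CPM in DHT and 31.5 CPM in Vehicle from 65 UMIs in DHT and 53 UMIs in Vehicle, and 3.44% of genes were at least 1.5-fold lower. That cluster held 995 DHT and 388 Vehicle cells with medians of 1484 UMIs in DHT and 1552 UMIs in Vehicle. The summed level of 10 neutrophil markers in it was 4344 CPM in DHT and 1949 CPM in Vehicle, with 0 of 10 at 0 in either. That of 10 macrophage markers was 1659 CPM in DHT and 815 CPM in Vehicle, with Cd163 at 0 in both and Timd4 at 0 in Vehicle, and that of 8 monocyte markers was 312 CPM in DHT and 119 CPM in Vehicle, with 0 of 8 at 0 in either. Their part in the values of Cd9 and Dcstamp there was not tested. In the remaining named classes Cd9 ranged from a log2 ratio of -0.25 in neutrophil-like cells to -0.02 in monocyte-like cells.

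None of the genes measured at 20 CPM reached 1.5-fold in monocyte-like (4 genes), neutrophil-like (4), progenitor-like (4) or B cell-like (3) cells, where 1.96%, 2.57%, 1.83% and 17.7% of genes did in either direction. The largest of these ratios was Sirpa in monocyte-like cells, at 225 CPM in DHT and 174 CPM in Vehicle, a log2 ratio of 0.37 (0.33 to 0.41). Sirpa had 158 CPM in DHT and 131 CPM in Vehicle in neutrophil-like cells. Cd81 had 59.5 CPM in DHT and 75.2 CPM in Vehicle in neutrophil-like cells, a log2 ratio of -0.34 (-0.44 to -0.24). The B cell-like class had 113 Vehicle cells at a median of 4552 UMIs, which leaves wide intervals there. With no doublet removal Cd9 was called lower in progenitor-like and B cell-like cells, and Dcstamp in neutrophil-like cells.

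Dcstamp and Ocstamp counts in neutrophil-like cells were low and differed between the libraries. Dcstamp had 4.41 CPM in DHT and 9.65 CPM in Vehicle, and Ocstamp had 2.69 CPM in DHT and 5.51 CPM in Vehicle. Acp5 there was 24.96 CPM in DHT and 63.9 CPM in Vehicle. The log2 ratios were -1.13 for Dcstamp, -1.03 for Ocstamp and -1.36 for Acp5. Whether these counts are expression or free RNA was not tested.

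**Figure D4:**
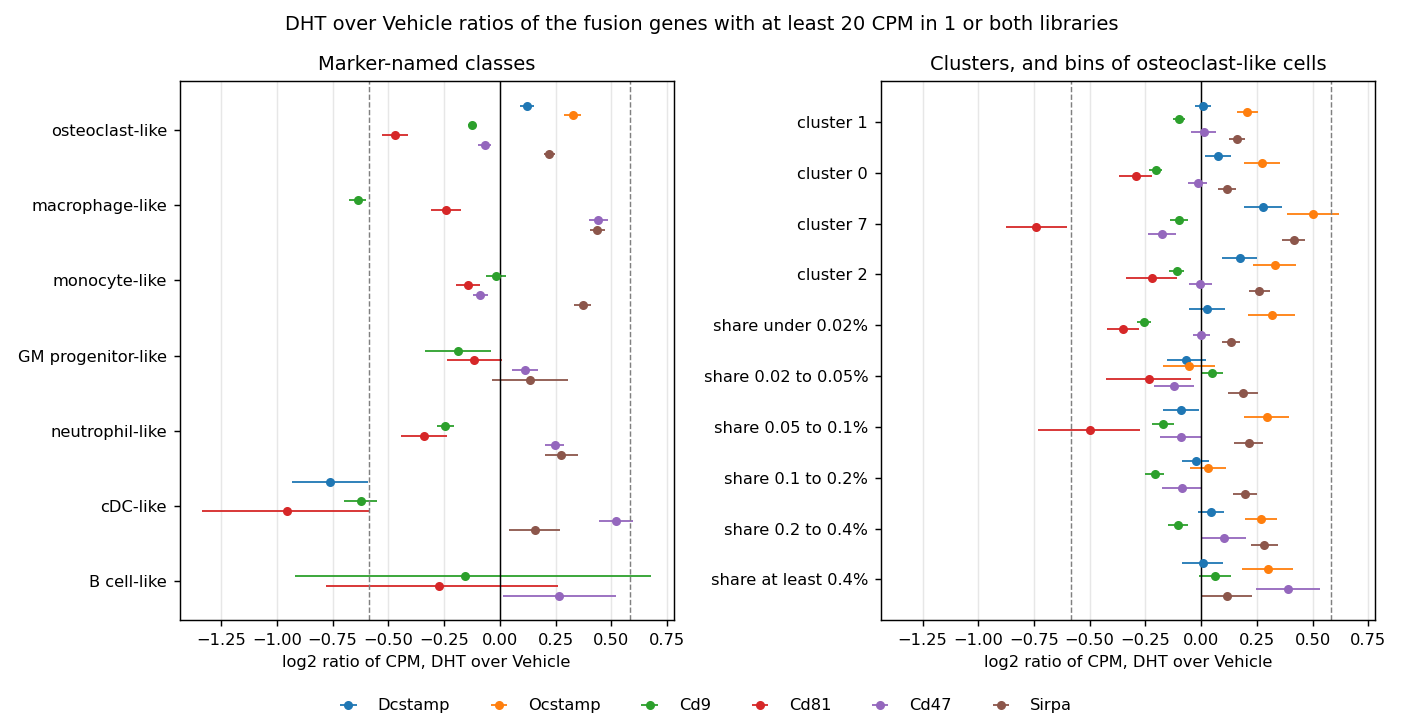
Log2 ratio of CPM, DHT over Vehicle, with 95% counting intervals, for fusion genes that reach 20 CPM in either library, in 7 classes (left) and in clusters 1, 0, 7 and 2 and 6 bins of osteoclast-like cells (right). Dashed lines mark 1.5-fold. Cd9 in macrophage-like cells, Dcstamp, Cd9 and Cd81 in cDC-like cells and Cd81 in cluster 7 lie past the lower line, and no point lies past the upper line.

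The genes that work beside these 6 were set out in 4 lists. Of 32 other fusion factors, 24 were at 20 CPM in osteoclast-like cells, and 0 were at least 1.5-fold higher or lower. Their median log2 ratio was 0.05, beside 0.04 over all 6515 genes, of which 64.01% were above 0. The list's highest ratios were those of Cd200, a surface glycoprotein of fusing macrophages (50.9 CPM in DHT, 34.8 CPM in Vehicle, log2 ratio 0.55), and Myo10, a motor of filopodia (245 CPM in DHT, 205 CPM in Vehicle, log2 ratio 0.26). The lowest were S100a4, a calcium-binding protein (3215 CPM in DHT, 3552 CPM in Vehicle, log2 ratio -0.14), and Cd36, a scavenger receptor (39.02 CPM in DHT, 42.96 CPM in Vehicle, log2 ratio -0.14).

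Of 23 other tetraspanins and partners, 10 were at that level and 0 were called, with a median of -0.005. Tspan31 (49.3 CPM in DHT, 41.5 CPM in Vehicle, log2 ratio 0.25) and Cd53 (77.6 CPM in DHT, 68.8 CPM in Vehicle, log2 ratio 0.17) were highest. Cd82 (35.04 CPM in DHT, 37.03 CPM in Vehicle, log2 ratio -0.08) and Igsf8, a partner of Cd9 and Cd81 (45.8 CPM in DHT, 47.5 CPM in Vehicle, log2 ratio -0.05), were lowest. The log2 ratio of Cd81, -0.47, was below that of each of the 10.

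Of 9 ligands, relatives and effectors of Cd47 and Sirpa, 5 were at that level and 0 were called, with a median of 0.05. The Sirpa-bound phosphatases Ptpn11 (58.6 CPM in DHT, 54.3 CPM in Vehicle, log2 ratio 0.11) and Ptpn6 (162 CPM in DHT, 152 CPM in Vehicle, log2 ratio 0.09) were highest, and the adaptors Fyb (180.1 CPM in DHT, 198 CPM in Vehicle, log2 ratio -0.14) and Skap2 (194 CPM in DHT, 188 CPM in Vehicle, log2 ratio 0.05) lowest. This list includes Sirpb1a, Sirpb1b and Sirpb1c, close relatives of Sirpa in sequence, and how reads shared among them were counted is not given in the sources used here.

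Of 23 transcriptional regulators of Dcstamp and Ocstamp, 16 were at that level, 0 were called and 14 had positive log2 ratios, with a median of 0.16. Over all 6515 genes the median was 0.04, and 64.01% were above 0. The AP-1 subunit Fosl2 (204 CPM in DHT, 166 CPM in Vehicle, log2 ratio 0.29) and Prdm1, a repressor that favours osteoclast formation (152 CPM in DHT, 124 CPM in Vehicle, log2 ratio 0.29), were highest. Spi1, the myeloid lineage factor (605 CPM in DHT, 611 CPM in Vehicle, log2 ratio -0.01), and Jun (88.96 CPM in DHT, 92.4 CPM in Vehicle, log2 ratio -0.05) were lowest. The positive ratios were not particular to osteoclast-like cells. In macrophage-like cells 19 of 19 regulators at that level had positive log2 ratios, with a median of 0.21, beside 0.01 over all genes there. In macrophage-like cells 1 of 25 other fusion factors was called lower and 1 of 8 genes of the Cd47 and Sirpa list higher, named here because of their values. Of all genes there 1.43% were at least 1.5-fold lower and 3.16% at least 1.5-fold higher. Atp6v0d2, a proton pump subunit needed for osteoclast fusion (13.99 CPM in DHT, 24.2 CPM in Vehicle, log2 ratio -0.79), was lower with DHT. Thbs1, a ligand of Cd47 (26.5 CPM in DHT, 7.15 CPM in Vehicle, log2 ratio 1.89), was higher with DHT. The lists also held calls in other classes, which are not named here.

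**Figure D5:**
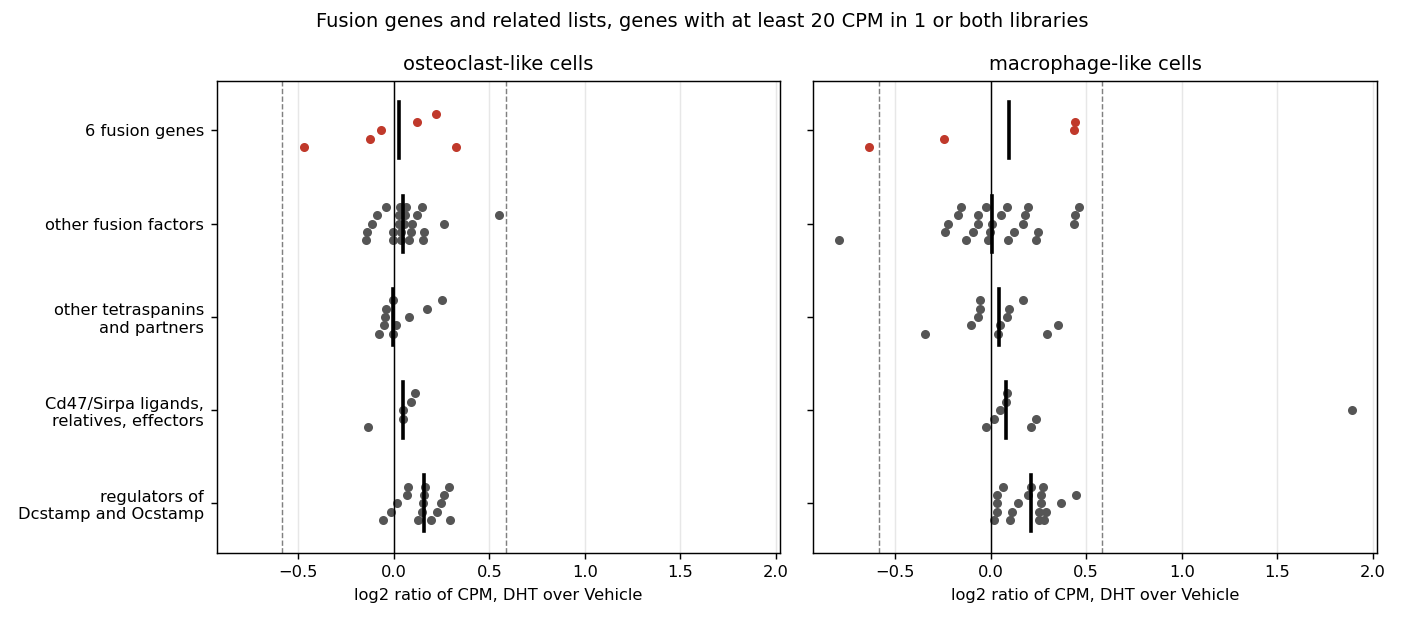
Log2 ratio of CPM, DHT over Vehicle, of the 6 fusion genes (red) and of 4 related gene lists (grey), in osteoclast-like cells (left) and macrophage-like cells (right). Each point is 1 gene that reaches 20 CPM in either library, bars are medians and dashed lines mark 1.5-fold. In osteoclast-like cells 0 points are past a dashed line.

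Across the 14 sums of 7 classes and 2 libraries, Dcstamp and Ocstamp had similar patterns, with a Pearson correlation of log2(CPM + 10) of 0.90. Both ran against Cd81, at -0.82 for Dcstamp and -0.67 for Ocstamp, and Cd9 and Sirpa had a correlation of 0.79. These points share libraries and cell classes, and the values only describe the 14 sums. Among 8522 genes the closest to Dcstamp were Ptchd1 (0.98), Fnbp1l, Pde4dip, Pmepa1 and Padi2. The closest to Ocstamp were Slc9b2 (0.99), the growth hormone receptor Ghr, Bdh2, Akap6 and the kinase Src.

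Cd9 was closest to Dnajb14 (0.98), the actin cross-linker Actn1, Anxa1, Nfam1 and Dock5, of which Anxa1 and Dock5 are on the list of other fusion factors. Sirpa was closest to Fyb (0.96), an adaptor on the list of its effectors, then Fnip2, the actin-binding profilin Pfn1, Map7d1 and Ppt2. The nearest genes were less alike for Cd81, led by Wls (0.86) and including the tetraspanin Tspan32, and for Cd47, led by Csnk1e (0.91).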

How the data were processed

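The authors deposited unnormalised UMI counts, 1 gene-by-barcode matrix for each of the 2 droplet 3′ libraries. Cell Ranger 7.0.1 is named per the file headers and per the submitters' processing notes, which also list GRCh38 and mm10 as builds, with no role stated. The calling of barcodes and the use of introns and strand in counting are not given in the sources available. The deposited counts held 319430510 UMIs over 10798 DHT barcodes and 453802415 UMIs over 10630 Vehicle barcodes.

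Kept barcodes had 300 genes and 800 UMIs or more, with mitochondrial UMIs up to 10%, and Scrublet (expected rate 0.08) removed 203 DHT doublets (2.57%) and 156 Vehicle doublets (1.78%). Cells were clustered with scanpy 1.11.5 and leidenalg 0.10.2 (2000 variable genes, 30 components, 15 neighbours, resolution 0.6, fixed seed, 1 thread and fixed processor settings) under Python 3.11.15 with numpy 2.4.6 and scipy 1.17.1. Without fixed thread and processor settings the same steps did not give the same clusters on each run. A cluster was named for the cell type with the most markers among its 10 leading genes, if at least 3 and at least 50% of the detected markers were over 2-fold above the median of the other clusters. Clusters under a median of 2000 UMIs stayed unnamed. UMIs were summed per class and library and scaled to CPM, with exact Poisson, Clopper-Pearson and conditional binomial intervals at 95%. Calls are by size (1.5-fold, at least 20 CPM in 1 or both libraries), since 1 library per group allows no test of treatment. The calculations were tested on simulated counts drawn independently, which checks the code and not whether the intervals hold in these cells. Genes named are the 6 members, the 2 highest and 2 lowest ratios and any call of each list in osteoclast-like cells, the 5 genes most like each member, and a fixed set of markers. Members, lists, markers and alternatives were chosen with earlier results of these data known. Of the gene identifiers 32158 (99.6%) matched GENCODE M21.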

Additional observations from a re-analysis of the deposited data

Results flagged for a closer look

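Dcstamp and Cd47 had log2 ratios of opposite sign in osteoclast-like cells and in other classes, and those differences were not tested. The log2 ratio of Dcstamp, DHT over Vehicle, was -0.76 in conventional dendritic cell-like cells, beside 0.12 in osteoclast-like cells, a value whose sign depends on the clustering. The log2 ratio of Cd47 was 0.26 in B cell-like, 0.52 in conventional dendritic cell-like, 0.11 in granulocyte-monocyte progenitor-like, 0.44 in macrophage-like and 0.25 in neutrophil-like cells, beside -0.07 in osteoclast-like cells. The sign of that last value also depends on the clustering, and it held in 19 of 22 alternatives. In the progenitor class the median log2 ratio over all genes was 0.09, near the value of Cd47 there. Each is 1 value from 1 library per group.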

How the results depend on the processing

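The count of 0 genes at least 1.5-fold higher with DHT in osteoclast-like cells held in 22 of 22 alternatives. The count of 0 lower held in 21 and became 1 (Cd81) with 1 of 5 other random seeds for the clustering. These seeds were chosen after seeing the data, as was 1 other processor setting. So were cluster 1 alone, the addition of cluster 2 and the weighting to 1 mix of bins. The processor setting and these last alternatives left the count at 0. While thread and processor settings were not fixed, the same steps gave a smaller osteoclast-like class in which Cd81 was called lower, so neither a count of 0 nor of 1 is firm. The log2 ratio of Cd81 was negative in 22 of 22, from -0.63 to -0.30. Signs for Ocstamp, Cd9 and Sirpa also held in 22 of 22. Ocstamp ranged from 0.19 to 0.37, Cd9 from -0.17 to -0.08 and Sirpa from 0.16 to 0.29. Dcstamp ranged from -0.01 to 0.17, with the sign of the reported value in 20 of 22. Cd47 ranged from -0.12 to 0.02, with the sign of the reported value in 19 of 22. Sizes were less firm than signs. Log2 ratios lay outside the counting interval of the reported value in 14 of 22 for Ocstamp and for Cd9. They did so in 13 for Dcstamp and for Sirpa, in 8 for Cd47 and in 5 for Cd81. The counting intervals therefore do not cover the choice of processing. The 22 are not separate checks. Dropping the minimum CPM cannot change a ratio. Naming clusters against all other cells gave the same cells as cluster 1 alone, where Cd81 was under 20 CPM and could not be called. TMM shifted all log2 ratios by 0.05 and median-of-ratios by 0.04. The cells called osteoclast-like changed with the settings, from 715 to 2286 in DHT and from 1319 to 4883 in Vehicle.

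In bins, the count of 0 became 1 (Dcstamp) over all kept cells of at least 5000 UMIs, which mix the classes in different shares. It also became 1 with each of 3 of the other random seeds (Cd81). In the other classes the count of 3 genes (Dcstamp, Cd9, Cd81) was 1 at resolution 1.0, and 2 at resolution 0.3 and with the mean of each cell's CPM. It was 4 with no doublet removal, and 5 with no minimum CPM (chosen after seeing the data). With no doublet removal Sirpa was called higher in macrophage-like cells, and Cd9 was called lower only in B cell-like and progenitor-like cells. Dcstamp was then called lower in neutrophil-like as well as dendritic cell-like cells. The count was 3 under TMM and the other processor setting and from 2 to 4 with the other random seeds. No paired analysis was possible because each group is 1 library. Leaving out a replicate was not possible for the same reason. Counting limits Cd81 in dendritic cell-like cells, where it rests on 82 UMIs in DHT and 227 UMIs in Vehicle.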

Other observations

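Osteoclast-like cells were also divided, within each library, into 3 equal groups by the share of their UMIs from 133 interferon genes. The split was chosen with the data known and is given as values only. From the group with the lowest share to that with the highest, Dcstamp was 165, 122 and 88.3 CPM in DHT, and 155, 112 and 82.4 CPM in Vehicle. Cd81 was 19.5, 29.7 and 37.9 CPM in DHT, and 29.4, 40.1 and 49.5 CPM in Vehicle, and Cd47 was 98.2, 130.4 and 154 CPM in DHT, and 109, 132 and 156 CPM in Vehicle. Acp5 along the same groups was 884, 583 and 399.5 CPM in DHT, and 789, 440.3 and 318 CPM in Vehicle, so the groups also differ in osteoclast gene level. Cd81 was lower in DHT than in Vehicle in 3 of 3 groups, and the DHT groups had higher interferon shares than the Vehicle ones, with medians of 0.524%, 0.758% and 1.17% in DHT and 0.364%, 0.467% and 0.605% in Vehicle.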
